A study of Manis javanica with 3 samples.

Results

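The genes of hepcidin and of iron handling were followed in 3 tissues (small intestine, salivary gland, liver) of the Malayan pangolin (Manis javanica), a mammal that feeds on ants and termites. The members were the genes annotated as HAMP, TF, TFRC, TFR2, HFE, HFE2, SLC40A1, FTH1, FTL or CP, taken by the gene symbol of the Swiss-Prot entry or, failing that, of the KEGG entry. Paralogs that shared a symbol were told apart by the product named in the NR protein database. In all, 13 of 24220 genes were members, with 2 genes each for FTH1, FTL and CP and 1 gene for each of the other 7 names. Members were chosen because of their levels in these libraries, so the values below describe them and no test was made.

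Of 15 genes with a member's symbol, 3 were set aside by product. These were gene3932 and gene7669, which carried the symbol CP but the products hephaestin and hephaestin-like protein 1, and gene21391, which carried the symbol HFE and the product of an MHC class I-related gene. HFE2 (gene11937) was found by its product, hemojuvelin, since its symbol was that of the relative RGMA. TFR2 (gene20106) carried the symbol TFRC and was separated from TFRC itself (gene21550) by the product. A further gene annotated as transferrin receptor protein 1, gene9323, had an annotation and no expression values in the files used here.

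The study sequenced RNA from 1 adult female, a wild animal that died during rescue, and all 3 tissues were taken from it. There was 1 library per tissue, so differences between tissues could not be set against a spread between animals. The intervals given for folds are 95% exact (Clopper-Pearson) intervals of the counts, and they cover counting error only. The labels name no treatment, and the groups differ in the tissue sampled.

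Iron leaves cells through a single known exporter, ferroportin, and travels in blood bound to transferrin, which cells take up through transferrin receptors. Hepcidin, a peptide hormone made mainly by hepatocytes, binds ferroportin and causes its degradation, which lowers the entry of iron into plasma. Its gene is switched on by bone morphogenetic proteins when iron is plentiful and by interleukin-6 in inflammation, and iron not in use is held inside shells of ferritin.

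Counts came to 10158924 in small intestine, 8318686 in salivary gland and 14568778 in liver, and a count of 0 allows up to 0.295, 0.361 and 0.206 CPM (counts per total, at a limit of 3 counts). The liver library expressed all 9 genes of a hepatocyte list above an FPKM of 1, against 5 in small intestine and 3 in salivary gland (FPKM being the fragments on a gene scaled for its length and for the mapped fragments of the library). The library labelled small intestine carried few markers of that organ. Its FPKM summed to 165255 over 16 gastric genes, 13 of them above 1, while 1 of 10 enterocyte genes, VIL1, exceeded 1 and FABP2 and LCT had a count of 0. Over 6 salivary gland genes the summed FPKM was 211, 314 and 95.7 in small intestine, salivary gland and liver. The water channel AQP5 (2.29, 94.3 and 24.7) and PIP (newGene_7084; 0.481, 28.0 and 0) were highest in salivary gland, CST3 (200, 186 and 54.7) and AMY1 (8.56, 5.39 and 16.3) were not, and LPO and BPIFA2 were below 1 in every library. The gene matched to AMY1 (gene16549) carried the product pancreatic alpha-amylase-like, so it may not be the salivary form. Whether the position sampled in the gut bears on any value below was not tested. In tissue RNA, fewer cells of a type and less RNA per cell cannot be told apart.

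**Figure D1:**
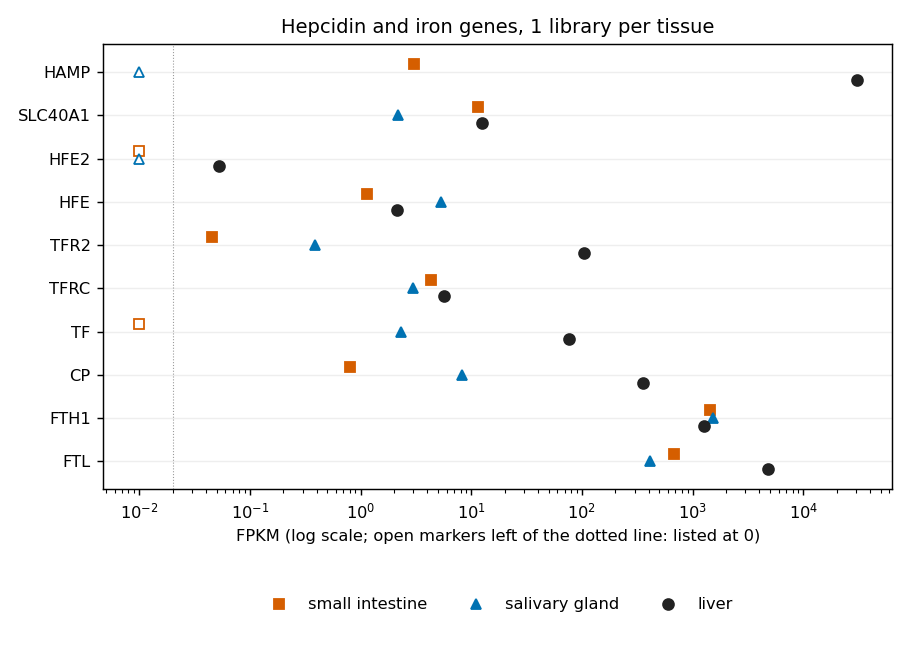
FPKM of the 10 iron genes (the gene with the highest FPKM for each name) in small intestine (squares), salivary gland (triangles) and liver (circles), on a log axis, with values of 0 as open markers left of the dotted line. HAMP reached 30304 in liver and was at or below 3.07 elsewhere, whereas the 3 values of FTH1 lay between 1254 and 1534.

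Summed over the members, the liver library held the most transcript, and most of that sum came from HAMP and FTL. Of 218825 member counts in liver, HAMP had 116179 and FTL (gene11863) 60843, and HAMP had 30304 of a summed FPKM of 36925. The sum does not hold for each member, since FTH1 (gene18635) and HFE had their highest FPKM in salivary gland. The 13 members took 1.50% of the liver counts, against 0.146% in small intestine and 0.205% in salivary gland, and 5.93%, 0.301% and 0.330% of the summed FPKM. At an FPKM above 1, the study's threshold for expression, 9 members were expressed in liver, 7 in salivary gland and 6 in small intestine, beside 57.0%, 56.3% and 59.4% of all genes. The order of FPKM in liver was HAMP, FTL, FTH1, CP, TFR2, TF, SLC40A1, TFRC and HFE. In both other libraries FTH1 and FTL came first, followed by SLC40A1, TFRC, HAMP and HFE in small intestine and by CP, HFE, TFRC, TF and SLC40A1 in salivary gland. With 1 library each, neighbours in these orders that lie close together, such as TF and SLC40A1 in salivary gland (FPKM 2.32 and 2.19), cannot be separated.

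**Figure D2:**
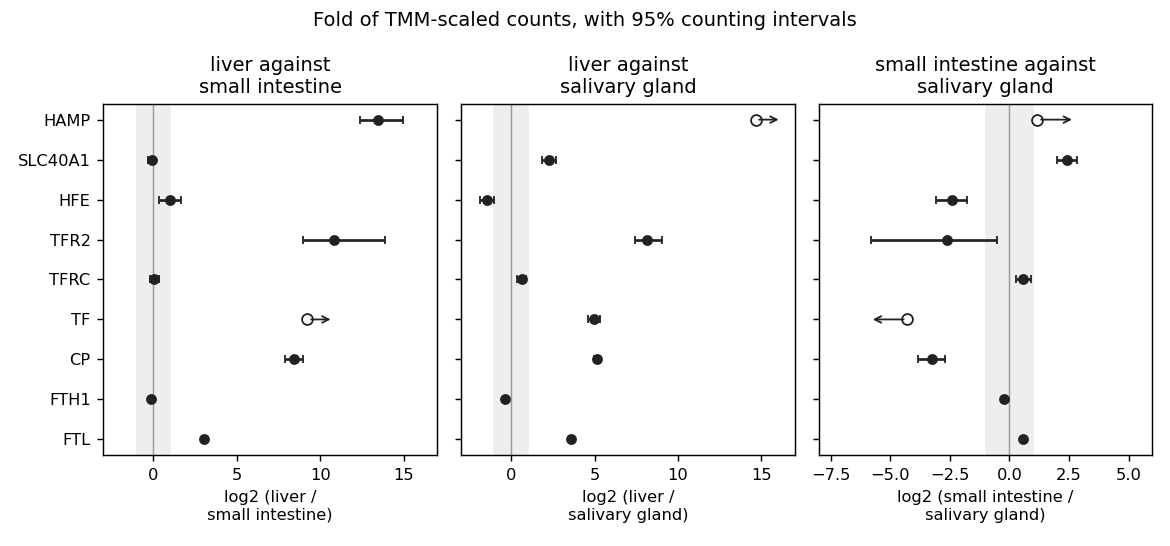
Log2 fold of TMM-scaled counts for 9 iron genes in each pair of libraries. Filled points carry 95% counting intervals, open points with arrows are bounds against a count of 0 taken as 3, and the grey band marks folds under 2. HAMP, TFR2, TF, CP and FTL lay right of the band in both comparisons with the liver, and TFRC and FTH1 lay inside it in all 3.

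Folds were taken between libraries after TMM scaling, a method that sets the libraries to a common level over most genes, and a gene was called past the fold at a log2 fold of 1 or more in either direction. Between the liver and the small intestine, 5 of the 10 members with enough counts were past the fold, all of them higher in liver and 0 higher in small intestine. Over all genes with enough counts, 49.0% were past the fold in this comparison, 23.0% higher in liver and 26.0% higher in small intestine. Between the liver and the salivary gland, 6 of 10 members were higher in liver and 1 in salivary gland, beside 48.0% of all genes past the fold, 23.8% higher in liver and 24.2% higher in salivary gland. Between the small intestine and the salivary gland, 2 of 9 members were higher in small intestine and 4 in salivary gland, beside 38.6% of all genes past the fold, 21.7% and 16.9% in the 2 directions. Against both other libraries at once, 5 of 10 members were higher in liver and 0 lower, beside 16.0% and 15.1% of the 18155 genes with enough counts in both comparisons. The median log2 fold of the members was 1.99, 2.93 and -0.21 in these comparisons, and that of all genes was 0.02, 0.04 and 0.01. The 3 comparisons share libraries and the members were chosen on these values, so nothing about the members is read from the counts.

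HAMP (gene10646) encodes hepcidin, the hormone itself. The annotated gene lies on scaffold NW_016534417.1 from 333141 to 334637 on the plus strand and has a transcript length of 416 bases. It had 6 counts in small intestine, 0 in salivary gland and 116179 in liver, which is FPKM 3.07, 0 and 30304. The liver value was the highest FPKM of any gene in that library, and the counts were 0.797% of the total (95% Wilson interval 0.793 to 0.802%). HAMP was 11439-fold (5255 to 31170) higher in liver than in small intestine and at least 25721-fold higher than in salivary gland. Between the small intestine and the salivary gland the 6 counts against 0 gave at least 2.26-fold (log2 1.18), which became 0.71 on the log2 scale when libraries were scaled by their totals only.

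The place of HAMP at the top depended on the scale. By counts alone it was the gene in position 9 of the liver library, and by counts per kilobase of annotated length it was again in position 1, with 19170 CPM per kilobase. The deposited FPKM gives short genes more than that ratio does: the median count per unit of FPKM and kilobase was 8.86 over 73 liver-expressed genes of 200 to 500 bases and 14.1 over 1329 genes of 1000 to 2000 bases. Comparisons of HAMP with longer genes by FPKM include this difference, and folds of HAMP between libraries do not.

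The 5 genes most like HAMP over the 3 libraries, by the Euclidean distance of log2 (FPKM + 1), were IGFBP1 (gene14773), FGB (gene1591), FGG (gene1593), FGA (gene1592) and CRP (gene24234). The distances ran from 2.01 for IGFBP1 to 3.36 for CRP, and the liver FPKM from 4844 for CRP to 19034 for IGFBP1. IGFBP1 encodes a binding protein of insulin-like growth factors, the FG genes encode the chains of fibrinogen, and CRP encodes C-reactive protein, a plasma protein of the acute phase. FGB and FGG had 0 counts in both other libraries, and FGA had 2 in small intestine and 5 in salivary gland beside 536135 in liver, beside which HAMP had its 6 in small intestine. An acute-phase list of 11 genes, which includes 4 of these 5 neighbours, had a summed FPKM of 78165 in liver, 143 in small intestine and 199 in salivary gland, and 10 of the 11 exceeded 1 in liver. The part of an acute-phase state of the animal in the HAMP level was not tested.

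The genes that flank HAMP on its scaffold had far lower levels in liver. Upstream stimulatory factor 2 (gene10645), 2204 bases before HAMP, had an FPKM of 45.8, 50.3 and 138 in small intestine, salivary gland and liver. The gene for myelin-associated glycoprotein (gene10647), 4087 bases after it, had 0.216, 0.103 and 2.29. All 3 genes lie on the plus strand.

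SLC40A1 (gene13527) encodes ferroportin, the exporter that hepcidin removes from the membrane. It lies on scaffold NW_016537133.1 from 63829 to 107959 on the plus strand. It had an FPKM of 11.4 in small intestine, 2.19 in salivary gland and 12.4 in liver, from 257, 55 and 404 counts. The small intestine and the liver were within the fold, at a log2 fold of liver over small intestine of -0.11 (-0.34 to 0.12; 0.13 by library totals only), and both were above the salivary gland, 4.88-fold (3.67 to 6.59) in liver and 5.28-fold (3.94 to 7.20) in small intestine. The FPKM of HAMP was 2445 times that of SLC40A1 in liver and 0.268 times in small intestine. By counts per kilobase the ratios were 2081 and 0.169, and the small intestine ratio rests on 6 counts of HAMP. The levels are of RNA, and the protein that hepcidin acts on was not measured.

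The genes most like SLC40A1 were TNFAIP3 (gene10931), USP25 (newGene_1458), a glycophorin-C gene (gene16548), EMP3 (gene24246) and another gene with the product of USP25 (gene20124), at distances from 0.172 to 0.408. Macrophages that recycle iron carry much ferroportin, and a list of 12 macrophage genes had a summed FPKM of 52.1 in small intestine, 41.9 in salivary gland and 814 in liver, with 5, 5 and 12 genes above 1. C1QC (FPKM 367) and C1QB (276) led the list in liver. The part of macrophages in the SLC40A1 level was not tested.

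The sensors that set hepcidin in hepatocytes were unequal. TFR2 (gene20106) encodes the second transferrin receptor, which serves in iron sensing, and lies on scaffold NW_016546719.1 from 163408 to 176640 on the plus strand. Its FPKM was 0.0451 in small intestine, 0.385 in salivary gland and 104 in liver, from 2, 14 and 6078 counts, where the scaled values deposited beside them correspond to 1 and 13 counts in small intestine and salivary gland. The ratio of liver to small intestine was 1795 (497 to 14828) and that of liver to salivary gland was 288 (172 to 528). The ratio of small intestine to salivary gland, at 2 against 14 counts, was -2.63 on the log2 scale (-5.81 to -0.51).

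HFE (gene11759) encodes an MHC class I-like protein that binds the transferrin receptor and is known for its mutation in hereditary hemochromatosis. It lies on scaffold NW_016535388.1 from 149221 to 156819 on the minus strand. It was highest in salivary gland, with an FPKM of 1.13 in small intestine, 5.34 in salivary gland and 2.12 in liver, from 25, 150 and 83 counts. The salivary gland was 2.72-fold (2.07 to 3.60) above the liver and 5.31-fold (3.46 to 8.46) above the small intestine. The log2 fold of liver over small intestine was 0.97 (0.31 to 1.68), just under the threshold, and 1.21 when scaled by library totals only.

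HFE2 (gene11937) encodes hemojuvelin, the co-receptor through which bone morphogenetic proteins act on hepcidin, and is known from muscle and liver. It lies on scaffold NW_016535487.1 from 22127 to 27952 on the plus strand. It had 0 counts in small intestine and salivary gland and 2 in liver, an FPKM of 0.0522, so no fold was taken. The liver library therefore held HAMP in the first place of all genes beside 2 counts of HFE2.

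The genes most like TFR2 were gene26540, annotated as very long-chain acyl-CoA synthetase, gene6004, annotated as solute carrier family 13 member 5, SLC17A2 (gene16652), the complement gene C3 (gene7466) and gene6382, annotated as the fatty acid elongase ELOVL2. Their distances lay between 0.236 and 0.371 and their liver FPKM between 89.0 and 120. All 5 had an FPKM below 0.5 in small intestine and salivary gland.

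TFRC (gene21550) encodes the first transferrin receptor, the one by which most cells take up iron, and lies on scaffold NW_016550241.1 from 7878 to 33567 on the minus strand. It differed little across tissues, with an FPKM of 4.36, 2.96 and 5.63 in small intestine, salivary gland and liver, from 195, 147 and 342 counts. No pair of libraries was past the fold, with log2 folds of 0.05 (-0.21 to 0.31) for liver over small intestine, 0.63 (0.34 to 0.92) for liver over salivary gland and 0.58 (0.27 to 0.90) for small intestine over salivary gland. The FPKM of TFR2 was 0.0103, 0.130 and 18.5 times that of TFRC in the same order (0.0193, 0.179 and 33.5 times by counts per kilobase), so the order of the receptors turned over in liver. TFRC is also carried by precursors of red cells. Over 9 erythroid genes the summed FPKM was 18.7, 4.35 and 15.7 in small intestine, salivary gland and liver, with 5 genes at 0 counts in each, SLC4A1 and RHAG among them. GYPC (FPKM 14.0, 2.03 and 13.3) made up most of the sum in small intestine and liver, EPB42 had 28, 50 and 78 counts, and 8 genes with a hemoglobin subunit as product had 20, 38 and 7 counts in all.

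TF (gene16436) encodes transferrin, the plasma carrier of iron, and lies on scaffold NW_016540497.1 from 14216 to 41170 on the minus strand. It had 0 counts in small intestine, 66 in salivary gland and 3056 in liver, which is FPKM 0, 2.32 and 75.7. The liver was at least 602-fold above the small intestine and 30.8-fold (24.1 to 39.9) above the salivary gland, and the salivary gland was at least 19.5-fold above the small intestine. Over the hepatocyte list, small intestine counts ran from 0 for TAT and CPS1, 2 for TTR and 3 for APOB to 336 for AHSG and 1540 for ALB. ALB had 4 counts in salivary gland and 10991 in liver.

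In the liver TF was modest beside hepcidin, and the FPKM of HAMP was 401 times that of TF, or 216 times by counts per kilobase. The 5 genes most like TF were MLXIPL (gene948, a carbohydrate-responsive transcription factor), a gene for very long-chain acyl-CoA synthetase (gene14638) and the new genes newGene_12532, newGene_10406 and newGene_10432. Their distances ran from 0.734 to 0.941.

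CP (gene20127) encodes ceruloplasmin, a copper enzyme of plasma that oxidises iron so that transferrin can bind it, and lies on scaffold NW_016546770.1 from 42712 to 100036 on the plus strand. Its FPKM was 0.795 in small intestine, 8.18 in salivary gland and 353 in liver, from 29, 309 and 16538 counts. The liver was 337-fold (234 to 503) above the small intestine and 35.5-fold (31.8 to 39.9) above the salivary gland, and the salivary gland was 9.42-fold (6.43 to 14.3) above the small intestine. CP and TF thus took the same order over the libraries, with CP at 4.66 times the FPKM of TF in liver and 3.53 times in salivary gland. By counts per kilobase these ratios were 3.26 and 2.82.

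The second CP gene (gene20126), annotated as ceruloplasmin-like, ends 4815 bases before gene20127 on the same strand and had 1 count in liver and 0 in the others. At its other end gene20127 overlaps by 11156 bases with gene20128, annotated as Hermansky-Pudlak syndrome 3 protein on the minus strand. Reads were aligned as unstranded, so fragments from the overlap cannot be told apart. The FPKM of gene20128 was 3.01, 3.79 and 7.47, far below that of CP in liver and above it in small intestine.

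**Figure D3:**
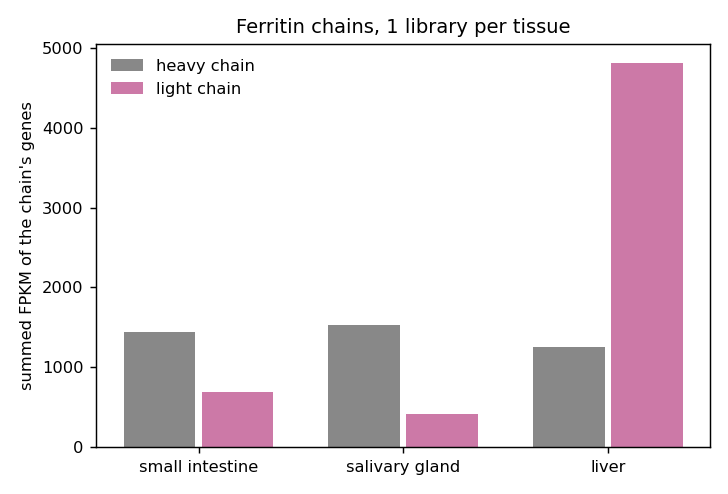
Summed FPKM of the genes for the ferritin heavy chain (grey) and light chain (pink) in each library, with the axis from 0. The heavy chain lay between 1254 and 1534 in the 3 libraries, and the light chain was at 4814 in liver.

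Transcripts of the 2 ferritin chains behaved differently. The levels are of RNA, and neither ferritin protein nor stored iron was measured. The heavy chain gene FTH1 (gene18635) carries the ferroxidase function and lies on scaffold NW_016543648.1 from 16276 to 18958 on the plus strand. Its FPKM was 1447 in small intestine, 1534 in salivary gland and 1254 in liver, from 9865, 12886 and 15292 counts. The log2 folds were -0.13 (-0.16 to -0.09; 0.11 by library totals only) for liver over small intestine, -0.34 (-0.38 to -0.31) for liver over salivary gland and -0.21 (-0.25 to -0.17) for small intestine over salivary gland, none past the fold. It was in position 32, 31 and 46 by FPKM.

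The light chain gene FTL (gene11863), whose product aids the laying down of the iron core, lies on scaffold NW_016535442.1 from 172166 to 173755 on the plus strand. Its FPKM was 683, 412 and 4813 in small intestine, salivary gland and liver, from 4482, 3408 and 60843 counts. The liver was 8.02-fold (7.78 to 8.27) above the small intestine and 11.9-fold (11.5 to 12.3) above the salivary gland, and it took position 14 by FPKM, against 98 and 123. Small intestine and salivary gland differed by a log2 fold of 0.57 (0.51 to 0.64).

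Summed over all their genes, the chains came to an FPKM of 2131 in small intestine, 1946 in salivary gland and 6068 in liver. The light chain made up 32.1%, 21.2% and 79.3% of this sum. The ratio of light to heavy chain was 0.472, 0.269 and 3.84, or 0.452, 0.263 and 3.96 by counts per kilobase, so the liver was the only library of the 3 with more light than heavy chain transcript. Both chains have annotated lengths close to each other (916 and 912 bases).

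Copies of the ferritin genes gave little. A second heavy chain gene (gene2003, 549 bases) had 1 count in small intestine and 0 in the others, and a second light chain gene (newGene_1349, 1058 bases) had 7 counts in liver and 0 in the others. Reads that fit more than 1 copy can be split between genes in counting, so their values are uncertain. Gene FTL has BAX (gene11861) on one side and GYS1 (gene11864) on the other, at a liver FPKM of 23.8 and 1.08.

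The genes that act on or beside the members were read from 8 lists with 103 genes by product. Of 97 genes with enough counts, 30 were higher in liver and 18 in small intestine, together 49.5%. Of 95, 30 were higher in liver and 16 in salivary gland, together 48.4%, and of 96, 19 were higher in small intestine and 18 in salivary gland, together 38.5%. These shares lie near those of all genes given above.

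**Figure D4:**
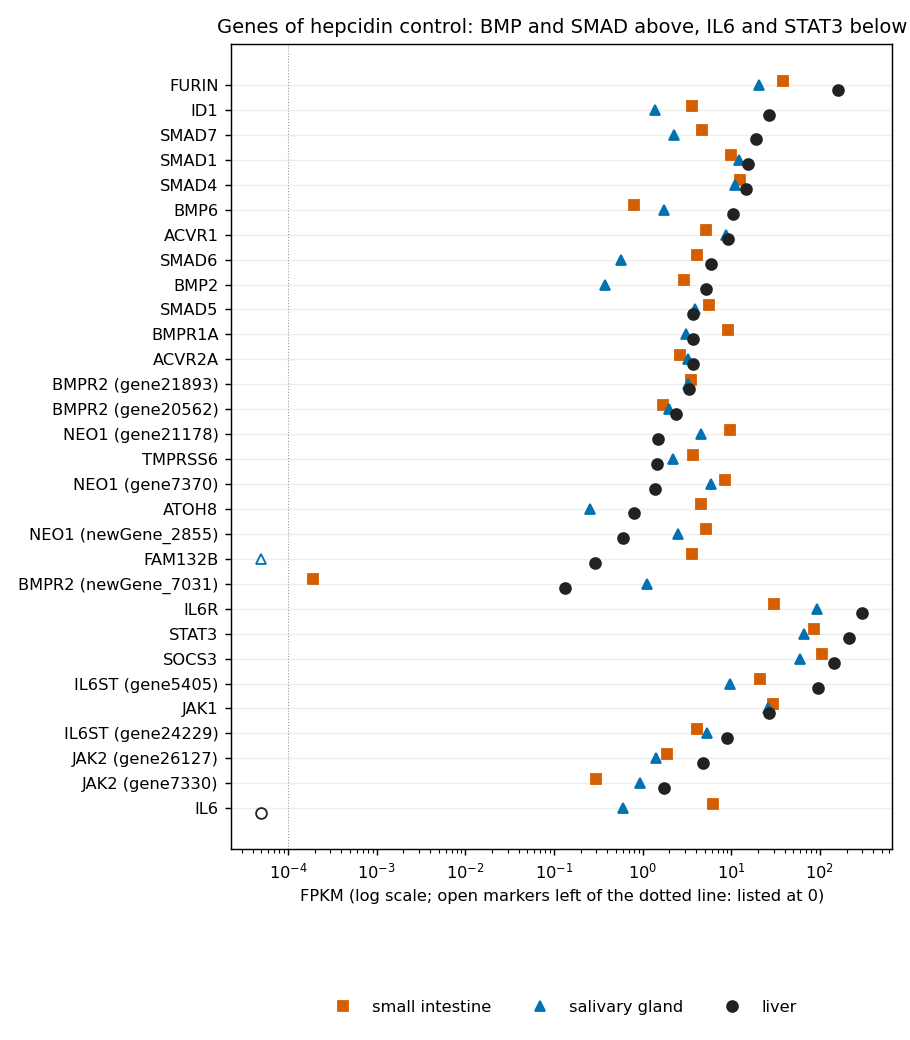
FPKM of the genes of hepcidin control on a log axis, by library (symbols as in the key), with BMP and SMAD genes in the upper block and IL6 and STAT3 genes in the lower, each ordered by liver FPKM. FURIN, ID1, SMAD7 and BMP6 were highest in liver, whereas the 3 genes annotated as NEO1 were lowest there.

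Of 21 genes of hepcidin control by bone morphogenetic proteins (BMP) and SMAD proteins, 4 were past the fold above both other tissues in liver and 3 below both, beside 16.0% and 15.1% of all genes. The median log2 fold of the list was 0.12 for liver over small intestine and 0.07 for liver over salivary gland. BMP6 (gene3826), the ligand that iron raises, had an FPKM of 0.803, 1.72 and 10.5 in small intestine, salivary gland and liver. Its liver level was 13.8-fold (9.34 to 21.3) above the small intestine and 6.31-fold (4.87 to 8.30) above the salivary gland.

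ID1 (gene612) and SMAD7 (gene11497), genes that this signal turns on beside HAMP, had an FPKM of 26.9 and 19.1 in liver. ID1 was at 3.65 and 1.37 and SMAD7 at 4.71 and 2.28 in small intestine and salivary gland. SMAD6 (gene26776) of the same list was at 4.07, 0.564 and 5.91 in small intestine, salivary gland and liver. Its log2 fold of liver over small intestine was 0.70, within the fold. ATOH8 of the same list was highest in small intestine, at 4.59, 0.254 and 0.807 in the same order. The part of this signal in the HAMP level was not tested. FURIN (gene23341), a protease that cuts prohepcidin and hemojuvelin, was at 38.7, 20.4 and 161 in small intestine, salivary gland and liver. The 3 lower genes all carried the product neogenin, a partner of hemojuvelin (NEO1; gene7370, gene21178 and newGene_2855), and had a liver FPKM of 0.601 to 1.48 against 2.48 to 9.59 elsewhere. They lie on 3 scaffolds, with lengths of 4435, 979 and 1349 bases. They may be parts of a single gene, so the count of 3 genes below both may hold that gene more than once.

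Other genes of this list were low in the liver library. TMPRSS6 (gene4898) encodes matriptase-2, a liver protease that cuts hemojuvelin and so lowers hepcidin, and it had an FPKM of 3.69, 2.21 and 1.44 in small intestine, salivary gland and liver, from 121, 92 and 98 counts. Its log2 fold of liver over small intestine was -1.06 (-1.46 to -0.67). ATOH8 (gene16925) had 85, 5 and 28 counts, with log2 folds of -2.36 for liver over small intestine and 1.90 for liver over salivary gland. A fragment annotated as BMPR2 (newGene_7031) had 1, 16 and 4 counts. Another gene annotated as BMPR2 (gene21893) had 225, 221 and 257 counts and was within the fold in each pair of libraries.

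The list of control by interleukin-6 and STAT3 had 9 genes, of which 8 had enough counts in both comparisons. In liver 3 of the 8 were above both other tissues and none below both (16.0% and 15.1% of all genes), with median log2 folds of 0.83 and 1.27 for liver over small intestine and over salivary gland. IL6R (gene590), the receptor, had an FPKM of 30.6, 91.5 and 301 in small intestine, salivary gland and liver, and IL6ST (gene5405), its signalling partner, had 21.2, 9.68 and 95.3. STAT3 (gene23585), the factor that acts on HAMP, was at 85.4, 65.5 and 211, and SOCS3 (gene18672), an inhibitor that STAT3 turns on, was at 106, 59.6 and 143. The ligand IL6 (gene10334) had 25 counts in small intestine, 3 in salivary gland and 0 in liver.

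**Figure D5:**
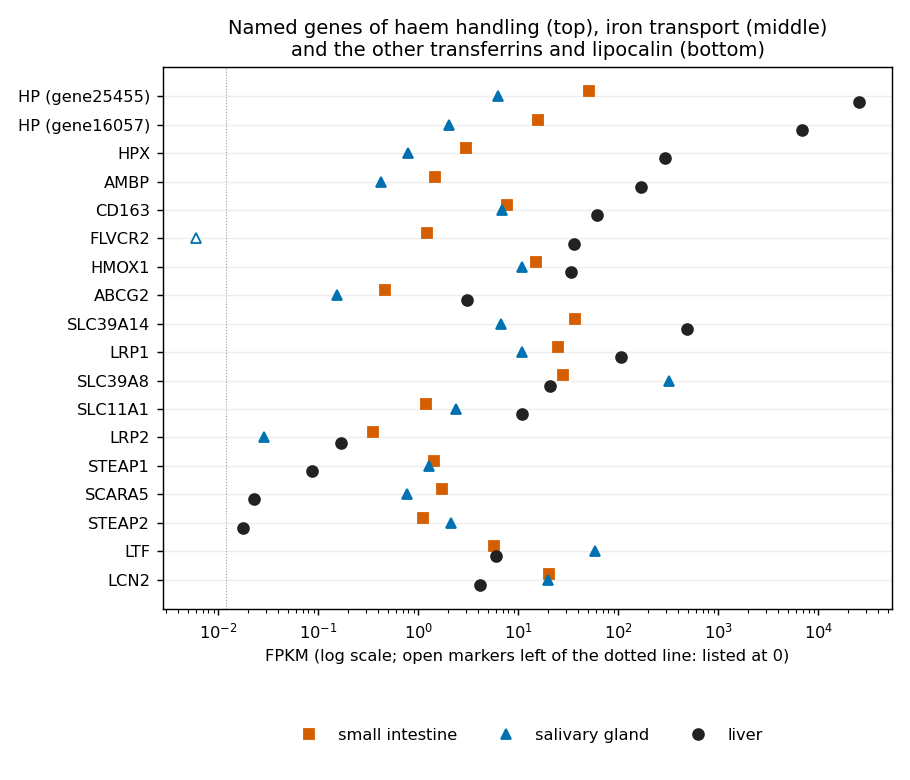
FPKM of the named genes of haem handling, of membrane iron transport and of the other transferrins and lipocalin, on a log axis, by library (symbols as in the key). The genes shown were named for their folds against liver or their level, and both HP genes reach 6882 and 25755 in liver while SLC39A8 and LTF reach 324 and 59.1 in salivary gland.

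The carriers of iron not bound to transferrin differed between tissues. SLC39A14 (gene5371), the ZIP14 carrier by which hepatocytes take up iron not bound to transferrin, had an FPKM of 37.0, 6.80 and 483 in small intestine, salivary gland and liver, and was 12.7-fold (12.0 to 13.4) and 66.9-fold (59.7 to 75.3) higher in liver. Its relative SLC39A8 (gene4035) had 28.2, 324 and 20.9, and was 18.2-fold (16.8 to 19.7) higher in salivary gland than in liver. In the liver SLC39A14 thus exceeded TFR2 and TFRC in FPKM.

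Of 17 genes of membrane transport and reduction, 14 had enough counts, and 3 of these were higher in liver than in both other libraries (16.0% of all genes), SLC39A14, LRP1 (gene23365, a scavenger receptor) and SLC11A1 (gene24765, a metal carrier of macrophages). LRP1 was at FPKM 24.9, 10.9 and 106 and SLC11A1 at 1.21, 2.40 and 10.8. The median log2 fold of the list was 0.04 for liver over small intestine and -0.18 for liver over salivary gland. The reductases STEAP1 (gene15955) and STEAP2 (gene15956) and the ferritin receptor SCARA5 (gene24870) were lower there than in both others (15.1% of all genes), with 1 count each against 12 to 104. A fragment annotated as LRP2 (gene4608) had 11, 2 and 8 counts, and another gene annotated as LRP2 (newGene_10268) had 187, 409 and 436.

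Other genes of this list are known from iron absorption in the duodenum. The labels do not name the duodenum, and in the library labelled small intestine 1 of 10 enterocyte genes exceeded an FPKM of 1. SLC11A2 (gene1199), the importer DMT1, had an FPKM of 4.56 in small intestine against 10.2 in salivary gland and 3.74 in liver. CYBRD1 (gene13762), known as the duodenal reductase, had 3.82, 3.24 and 1.95, highest in small intestine. HEPH (gene3932), the oxidase that works with ferroportin at the base of enterocytes, had 0 counts in all 3 libraries. SLC40A1, its partner, was at 11.4 in small intestine.

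Haem scavenging, transport and breakdown held 14 genes, and 8 of them were past the fold above both other tissues in liver and none below both, beside 16.0% and 15.1% of all genes. In each comparison with liver 8 of 14 were higher in liver, beside 23.0% and 23.8% of all genes. Told by symbol alone, which takes in paralogs, the list had 24 genes with enough counts, 10 above both and 3 below both. The median log2 fold was 1.87 for liver over small intestine and 2.36 for liver over salivary gland. The genes annotated as HP, haptoglobin, which binds free hemoglobin, had a liver FPKM of 25755 (gene25455) and 6882 (gene16057), against 51.2 and 15.9 in small intestine and 6.34 and 2.03 in salivary gland. They may share reads or be parts of a single gene, so the counts of 8 may hold that gene more than once. Their lengths are 401 bases (gene25455) and 1089 bases (gene16057). The limit given for the FPKM of short genes such as HAMP applies to gene25455 too. HP is also on the acute-phase list.

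Genes of the list that were highest in salivary gland were SLC48A1 (18.1, 30.0 and 11.5 in small intestine, salivary gland and liver), HMOX2 (18.2, 27.6 and 16.2) and BLVRB (19.7, 39.2 and 27.5), among others. HPX (gene18935), hemopexin, which binds free haem, had 3.04, 0.792 and 297, and AMBP (gene2588), the precursor of a haem-binding plasma protein, had 1.48, 0.424 and 168. CD163 (gene12806), the macrophage receptor for the haptoglobin complex, had 7.67, 6.96 and 61.0, and HMOX1 (gene12998), which opens the haem ring and frees its iron, had 15.0, 10.9 and 33.5. FLVCR2 (gene12464) had 29, 0 and 1579 counts and ABCG2 (gene2868) 10, 4 and 87. CD163 is on the macrophage list, whose summed FPKM moved the same way, and the part of macrophages in these values was not tested.

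Of 13 genes of iron sensing, iron chaperones and ferritin turnover, 2 were higher and 2 lower in liver than in both other libraries (16.0% and 15.1% of all genes), with median log2 folds of 0.26 and 0.17 for liver over small intestine and over salivary gland. ACO1 (gene1136), which encodes the iron regulatory protein that binds ferritin and TFRC transcripts, had an FPKM of 7.50, 7.79 and 28.1, while IREB2 (gene9221), its relative, had 12.2, 9.74 and 25.5. PCBP1 (gene2651), a chaperone that carries iron to ferritin, was at 148, 148 and 280, and PCBP2 (gene6823) was at 529, 645 and 513. PCBP1, 1 of the 2 higher genes, lay at the threshold. Its log2 folds were 1.003 (0.923 to 1.084) for liver over small intestine and 1.001 (0.924 to 1.078) for liver over salivary gland. NCOA4 (gene4699), which takes ferritin to the lysosome, was at 36.6, 44.5 and 59.2 and SKP1 (gene17104) at 96.8, 83.1 and 137. PCBP3 (gene18537) and PCBP4 (gene369) were lower in liver, at 0.415 and 0.951, than in the other libraries, at 1.53 to 7.51.

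The mitochondrial list had 16 genes, with median log2 folds of 0.42 and -0.48 for the same comparisons, of which 13 had enough counts and 2 were higher in liver than in both other libraries (16.0% of all genes), HSPA9 (gene9978), at 55.4, 52.5 and 185, and FDX1 (newGene_9805), at 2.80, 3.10 and 11.7. ISCU (gene4875), the scaffold of iron-sulfur clusters, was at 120, 178 and 119 and GLRX5 (gene11544) at 51.1, 84.8 and 59.8. SLC25A37 (gene5391), mitoferrin-1, was at 13.3, 45.0 and 12.2, which placed the salivary gland highest. Haem synthesis held 10 genes, none of them past the fold in liver against both, and median log2 folds of -0.07 and 0.06. ALAS1 (gene15610), its first enzyme in most cells, was at 118, 34.4 and 38.4 and UROD (gene9124) at 62.6, 75.3 and 117, and ALAS2 (gene27148), its red-cell form, had 6, 2 and 0 counts.

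The list of 3 other transferrin family and lipocalin genes did not take the order of TF, and MFI2 (gene18852), melanotransferrin, had 0, 14 and 12 counts. LTF (gene23714), lactoferrin, which binds iron in secretions, had an FPKM of 5.71, 59.1 and 6.05 and was 10.3-fold (9.03 to 11.8) higher in salivary gland than in liver. LCN2 (gene22327), a lipocalin that binds bacterial iron carriers, had 20.3, 19.9 and 4.12. The salivary gland library thus held more LTF than TF transcript per length, at 59.1 and 2.32, and the liver held more TF, at 75.7 and 6.05.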

How the data were processed

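RNA of 3 tissues of 1 animal was sequenced in pairs. The authors aligned reads with TopHat2 as unstranded and built new genes with Cufflinks. They deposited counts per gene, FPKM and a score, the count times 1 factor per library. The paper gives a formula for FPKM and names RSEM for the FPKM of its tissue correlations. It does not say which of these made the deposited FPKM. The counting tool and the genome build are not given in the sources used here. For 28.5 to 29.1% of genes with counts, the deposited count was 1 above the score divided by its factor, so counts of 1 or 2 are uncertain.

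Libraries were scaled in pairs by TMM with edgeR 4.0.16 in R 4.3.3. The folds were computed with scipy 1.17.1, numpy 2.4.6 and pandas 2.3.3 under Python 3.11.15, and drawn with matplotlib 3.10.9. The fold code was run on simulated libraries with counting error only and few changed genes, all raised in liver. In the real libraries 38.6 to 49.0% of genes were past the fold, so that run does not show whether TMM scaling holds here. A count of 0 was taken as 3, with no fold where both counts were 3 or lower. There is no replicate, so no p-value is given. Alternatives were 4 other scalings, the FPKM fold, a minimum of 10 counts, a log2 fold of 2, and other FPKM thresholds.

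Members and lists were chosen with earlier results of these data known, and the product names that match list and marker genes were written after values by symbol had been seen. Genes named in a list were those past the fold in both comparisons with the liver, those with an FPKM over 50 in any library, and the highest. TMPRSS6, IL6, SLC11A2, CYBRD1, HEPH, IREB2, SLC48A1, HMOX2, BLVRB, SLC25A37, ALAS2, MFI2, the flanking genes and single markers were named after their values were seen. SMAD6 and the genes gene21893 and newGene_10268 were also named in that way.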

Additional observations from a re-analysis of the deposited data

How the results depend on the processing

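Over 139 recomputed member folds under 5 other scalings, no fold past the threshold changed direction and 2 crossed the threshold, both with library totals only: HFE in liver against small intestine moved to 1.21 and HAMP in small intestine against salivary gland to 0.71 (log2). Of folds within the threshold, 4 changed sign, all in liver against small intestine: SLC40A1 from -0.11 to 0.13 (library totals) and 0.11 (FPKM), FTH1 from -0.13 to 0.11 (library totals) and TFRC from 0.05 to -0.0039 (upper quartile). Scaling by library totals moved the median of all genes by 0.24 (liver against small intestine), -0.22 (liver against salivary gland) and -0.47 (small intestine against salivary gland) on the log2 scale, and the FPKM fold moved liver against salivary gland by 0.11. With library totals only, 36.0% of all genes past the fold between small intestine and salivary gland were higher in small intestine, against 56.1% under TMM. Over all alternatives, the members past the fold numbered 4 to 6 for liver against small intestine, 6 to 7 for liver against salivary gland and 4 to 6 for small intestine against salivary gland, and the FPKM fold gave the lowest because it leaves out values of 0. At an FPKM above 5, 3 members were expressed in small intestine and 4 in salivary gland. HAMP was in position 9 of the liver library by counts. List genes past the fold by symbol, an alternative chosen after seeing the data, numbered 48, 49 and 36, against 48, 46 and 37 by product. No paired analysis was possible because each tissue has 1 library. Counting depth limits HFE2, the second copies of FTH1, FTL and CP, and the small intestine values of HAMP and TFR2.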
